A study of Mus musculus with 37 samples.

Results

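The amyloid precursor family and the genes that process it were followed here through hippocampal astrocytes isolated 4 months after controlled cortical impact (CCI), a focal impact on the exposed cortex, or after sham surgery. The 9 genes were App, Aplp1, Aplp2, Itm2b, Itm2c, Bace1, Psen2, Ncstn and Sorl1, of 21975 genes in the deposited tables. They were chosen by symbol, and the group was selected because Aplp1 and Itm2c had already been seen to differ after injury in these libraries. Differences of these 9 genes between injured and sham libraries are therefore given as a description with no test.

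All mice were adult wild-type males, of the CD1 strain according to the study's methods and written as CD31 in the labels. PTE+ mice were injured at the deeper of the study's impact depths and had 2 or more seizures during EEG recording between 2 and 4 months after injury. PTE- mice received the same injury and did not develop post-traumatic epilepsy (PTE). Sham mice had the craniectomy and the electrodes without the impact. Astrocytes were collected with beads against ACSA-2, a surface antigen of astrocytes, from each hippocampus separately. The contralateral side gave 20 libraries (5 sham, 10 PTE- and 5 PTE+) and the ipsilateral side 17 (5, 8 and 4), with 17 of the 20 mice contributing both. At this injury depth much of the ipsilateral hippocampus is lost, according to the study, so the ipsilateral libraries of injured mice come from the tissue that remained.

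App encodes the amyloid precursor protein, a membrane protein that is cut either by alpha-secretases or by beta-secretase followed by gamma-secretase, the second route releasing amyloid-beta. Aplp1 and Aplp2 encode its paralogs, which are cut by the same classes of enzymes but contain no amyloid-beta stretch. Bace1 encodes beta-secretase. Psen2 and Ncstn encode a catalytic subunit and the scaffold subunit of gamma-secretase. Itm2b and Itm2c encode membrane proteins with a BRICHOS domain that bind the precursor and reduce its processing, and Sorl1 encodes a receptor that sorts it away from the compartments in which it is cut.

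The 3 precursor genes end in a short cytoplasmic tail, which is shown because it is the part they share most clearly and because similarity between paralogs could in principle blur read assignment. The last 60 coding bases before the stop codon are given 5′ to 3′ from the GENCODE M21 transcripts, with the 4 codons of the NPTY motif, a docking site for adaptor proteins, in capitals.
App, final exon 18 of 18, GRCm38 chr16:84955334-84955393, minus strand: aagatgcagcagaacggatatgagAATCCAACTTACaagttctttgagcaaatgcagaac
Aplp1, final exon 17 of 17, GRCm38 chr7:30435296-30435355, minus strand: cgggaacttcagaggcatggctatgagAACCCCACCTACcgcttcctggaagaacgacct
Aplp2, final exon 17 of 17, GRCm38 chr9:31150874-31150933, minus strand: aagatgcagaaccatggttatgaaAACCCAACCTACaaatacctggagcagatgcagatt
Aligned on the motif, App and Aplp2 were identical at 45 of 60 bases, App and Aplp1 at 33 of 57, and Aplp1 and Aplp2 at 36 of 57. The whole Aplp1 gene spans chr7:30434982-30445535 on the minus strand and Itm2c, the other gene with a difference after injury, chr1:85894281-85908675 on the plus strand. The longest identical run between whole transcripts was 24 bases for App and Aplp2 and 14 bases for the pairs App with Aplp1, Aplp1 with Aplp2 and Itm2b with Itm2c, far below the read length of 100 bases. No 100-base run of Aplp1, Aplp2, Itm2b, Itm2c, Psen2 or Sorl1 occurred in a transcript of another gene on either strand, against 24.0% of the runs of Bace1, which overlaps Rnf214 on the opposite strand, 2.27% for Ncstn, which overlaps Copa, and 0.12% for App. Because the library kit does not mark strand, Bace1 reads from the overlap could not be told apart from those of its antisense neighbours.

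Library depth was 25371887 to 55333329 counts on the contralateral side and 36925501 to 59846479 on the ipsilateral side. The 12 astrocyte markers were detected in every group, with a summed level of 6324 TPM in the ipsilateral PTE- library of mouse a8_11 and 12900 to 22560 TPM in the others, of which ipsilateral PTE- a9_12 was the lowest. Libraries a8_11 and a9_12 stood apart in the 8 markers of ependymal and choroid plexus cells, with a sum of 9941 and 10770 TPM against at most 2749 TPM in any other library. All 8 had a mean of at least 1 TPM in ipsilateral PTE- libraries, against 6 of 8 in ipsilateral sham, and of the choroid plexus genes Kl and Aqp1 were near 0 in a8_11 (0.04 and 0 TPM). Library a8_11 also had counts for only 9020 genes, and among 6953 well counted genes (median over 1000 counts), 2234 had at most 3 counts in it, against at most 984 in any other library. Ipsilateral fold changes that involve the PTE- libraries are also given without them.

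Itm2b was the most abundant of the 9 genes. On the TPM scale, which is per length and can be compared between genes, its mean level in the 10 sham libraries of 5 mice was 2456 ± 271 TPM (SD), and its median over 37 libraries ranked 32nd of 21975 genes. Itm2c followed at 1021 ± 191 TPM and Aplp1 at 905 ± 132 TPM, which did not differ beyond their spread. Aplp2 (366 ± 86.1 TPM), App (177 ± 60.4 TPM) and Ncstn (76.8 ± 26.5 TPM) came next, each apart from its neighbours by more than the SD of either. Psen2 (23.0 ± 11.7 TPM), Sorl1 (19.7 ± 8.83 TPM) and Bace1 (13.1 ± 9.76 TPM) were lowest and did not differ among themselves beyond their spread. In these astrocytes the transcript of Aplp1 was thus more abundant per length than that of App in all 37 libraries.

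**Figure D1:**
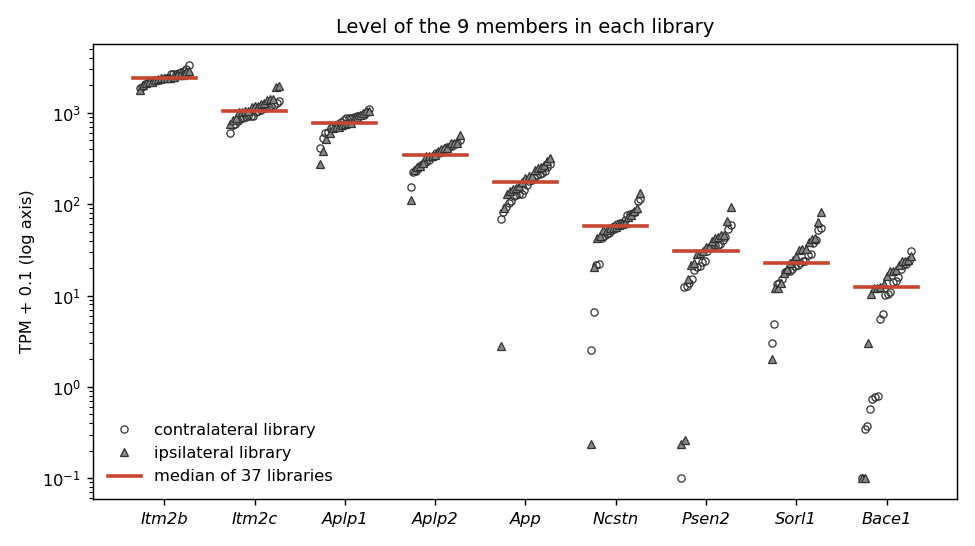
TPM plus 0.1 on a log axis for each of the 9 genes in the 20 contralateral (open circles) and 17 ipsilateral (filled triangles) libraries, ordered by the median over all libraries (red line). Itm2b, Itm2c and Aplp1 lie in narrow bands, from a median of 2390 TPM for Itm2b to 772 TPM for Aplp1, whereas single libraries of App, Ncstn, Psen2 and Bace1 fall far below the others.

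The genes also differed in how evenly they were measured. The SD of log2(CPM + 1) within groups, where CPM are TMM-scaled counts relative to library size, was 0.28 for Itm2b, 0.29 for Aplp1, 0.30 for Itm2c and 0.39 for Aplp2. Among the 9970 genes with a median above 5 TPM, whose median SD was 1.37, only 22, 30, 37 and 196 genes had a spread at or below that of Itm2b, Aplp1, Itm2c and Aplp2. Sorl1 (0.70), App (1.16), Ncstn (1.42), Psen2 (1.56) and Bace1 (2.04) varied more. Bace1 was under 1 TPM in 9 libraries, Psen2 in 3 and Ncstn in 1. Small differences were therefore measurable for the more even members and only large ones for the secretase genes.

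Aplp1 was lower on the ipsilateral side of injured mice than in sham mice. The 5 ipsilateral sham libraries had 1155, 1330, 1375, 1610 and 1685 CPM, whereas the 8 PTE- libraries ran from 520 to 1186 CPM with a median of 798 CPM. The 4 PTE+ libraries had 908, 1036, 1065 and 1178 CPM. Thus 6 of 8 PTE- and 3 of 4 PTE+ libraries lay below every sham library, and 4 of 5 sham libraries lay above every library of either injured group. The share of all genes that separate as far from sham was not counted. The fitted log2 fold change against sham was -0.76 (SE 0.20) in PTE- and -0.45 (SE 0.24) in PTE+ libraries. In bulk libraries fewer cells of a type and less RNA per cell cannot be told apart, so these values describe the collected cells as a whole.

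On the contralateral side no such separation was seen for Aplp1. Sham libraries had 1134, 1156, 1164, 1326 and 1338 CPM, PTE- libraries 696 to 1484 CPM with a median of 1170 CPM, and PTE+ libraries 868, 1027, 1138, 1148 and 1321 CPM. The log2 fold change against sham was -0.07 (SE 0.14) for PTE- and -0.15 (SE 0.17) for PTE+.

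Itm2c went the other way, and in PTE- libraries. Ipsilateral sham libraries had 1185, 1251, 1334, 1364 and 1766 CPM. The 8 PTE- libraries ran from 1489 to 3497 CPM with a median of 1716 CPM, so that 4 of 5 sham libraries lay below all of them and 3 PTE- libraries lay above all sham. Here too the share of all genes that separate as far was not counted. The 4 PTE+ libraries, at 1183, 1336, 1379 and 1855 CPM, overlapped sham. The log2 fold change against sham was 0.50 (SE 0.20) in PTE- and 0.06 (SE 0.23) in PTE+ libraries, while the contralateral values were -0.03 (SE 0.16) and -0.11 (SE 0.18).

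**Figure D2:**
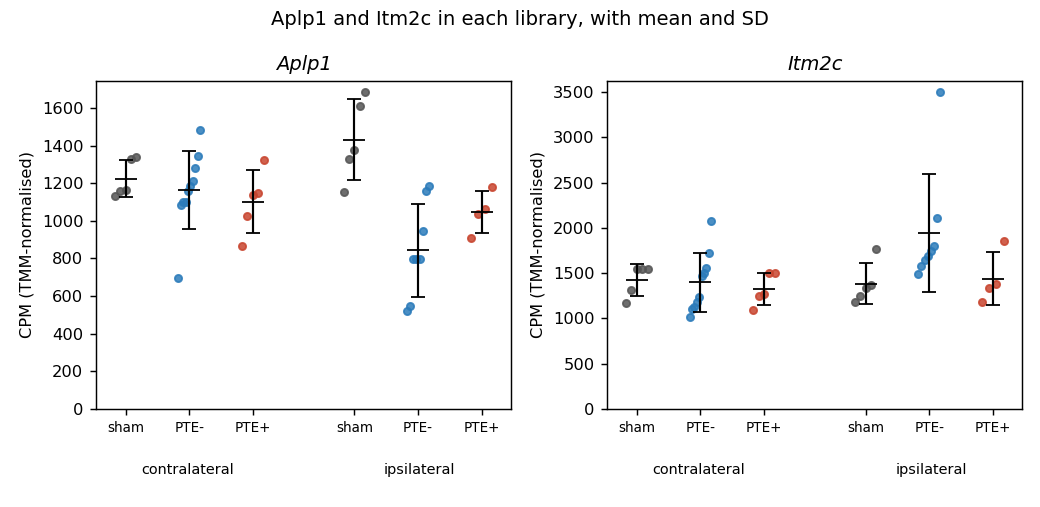
CPM of Aplp1 (left) and Itm2c (right) in each library by side and group, with the mean and SD in black. Ipsilateral Aplp1 averages 1431 CPM in sham against 843 CPM in PTE- libraries, and ipsilateral Itm2c 1380 against 1944 CPM, the latter including 1 PTE- library at 3497 CPM.

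By the study's call rule (unadjusted p under 0.05, at least 1.2-fold, mean above 5 TPM in 1 of the compared groups), these were the 2 of 9 members called in the ipsilateral PTE- and sham comparison, where 1.31% of all genes that could be called were called. No member was called in the ipsilateral PTE+ and sham comparison (0.64% of genes called), the contralateral PTE- and sham comparison (0.977%) or the contralateral PTE+ and sham comparison (0.66%). Under other settings the rule also called Ncstn, in the contralateral PTE- and sham comparison by limma voom with quality weights (-0.69, SE 0.28) and by limma on log2(TPM + 1) (-1.27, SE 0.61) and in the contralateral PTE+ and sham comparison when only these groups were fitted (-0.56, SE 0.20). In the ipsilateral PTE+ and sham comparison it called Aplp1 with the a8 or a9 prefix of the mouse names as a covariate (-0.50, SE 0.23). With only these groups fitted it called Aplp1 (-0.39, SE 0.17) and Sorl1 (0.83, SE 0.30), and by limma voom with quality weights Sorl1 (0.58, SE 0.27). In the ipsilateral PTE- and sham comparison without a8_11 it also called Ncstn (-0.73, SE 0.31) and Sorl1 (0.55, SE 0.26). Over all genes these settings called 330 and 463 for contralateral PTE- and 240 for contralateral PTE+. For ipsilateral PTE+ they called 75 with the prefix, 157 with only these groups and 305 by limma voom. With 1 library left out, 83 to 267 genes were called for ipsilateral PTE-. Since the members were selected on such a contrast, nothing is read from the member counts, and no contrast with sham was tested for a member.

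The Itm2c difference was smaller without the libraries that stood apart. Itm2c was highest in a8_11 (3497 CPM) and a9_12 (2113 CPM), the same 2 libraries with the high ependymal sum, in which Ttr reached 4671 and 7448 TPM against 0 to 853 TPM in the other 15 ipsilateral libraries. Without both, the ipsilateral log2 fold change of PTE- against sham was 0.29 (SE 0.14) for Itm2c and -0.64 (SE 0.19) for Aplp1. Without a8_11 alone the values were 0.35 (SE 0.14) and -0.66 (SE 0.18). The study's rule did not call Itm2c without both libraries, by limma voom with quality weights, or without sham a9_9 or sham a9_11. It called Aplp1 in each of these settings. Both genes selected the group, so these calls are counts under the rule and not tests, and nothing is read from them. The mouse names begin with a8 or a9, a difference that the labels do not explain. Within a8 the PTE- minus sham difference of Aplp1 was -1.32 on the log2(CPM + 1) scale (3 and 2 libraries) and within a9 -0.49 (5 and 3 libraries), and for Itm2c it was 0.69 and 0.31.

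Both genes moved with the astrocyte markers across the 17 ipsilateral libraries. The log2 level of Aplp1 correlated with the log2 summed level of the 12 markers with Pearson's r = 0.81 and Spearman's rho = 0.64, and that of Itm2c with r = -0.85 and rho = -0.91. Without the 2 libraries farthest from the median marker sum, which were a8_11 and a9_12, the values were 0.63 and 0.55 for Aplp1 and -0.85 and -0.87 for Itm2c. On the contralateral side, over 20 libraries, they were 0.24 and 0.27 for Aplp1 and 0.22 and 0.21 for Itm2c. These are descriptions over libraries that share the TPM scale, and the groups differ along the same axis: the median astrocyte sum was 21050 TPM in ipsilateral sham, 14790 TPM in PTE- and 17230 TPM in PTE+ libraries. The part of astrocyte content in the Aplp1 and Itm2c differences was not tested. Oligodendrocytes also express Aplp1. Of their 12 markers 9 had a mean of at least 1 TPM in ipsilateral sham and 7 in PTE- and in PTE+ libraries, with sums of 390 to 2179, 488 to 1148 and 492.8 to 987.9 TPM, and the sum correlated with Aplp1 at r = 0.10 and rho = 0.07. The 7 markers of oligodendrocyte precursors, all detected in every group, summed to 168 to 1208 TPM, and their sum correlated with Aplp1 at r = 0.79 and rho = 0.74 on the contralateral side and at r = 0.38 and rho = 0.41 on the ipsilateral side, which was likewise not tested for its part in any difference. For the ependymal and choroid plexus sum the values were r = 0.80 and rho = 0.70 with Itm2c and r = -0.47 and rho = -0.25 with Aplp1, and without a8_11 and a9_12 they were 0.51 and 0.57 with Itm2c and -0.11 and -0.03 with Aplp1.

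**Figure D3:**
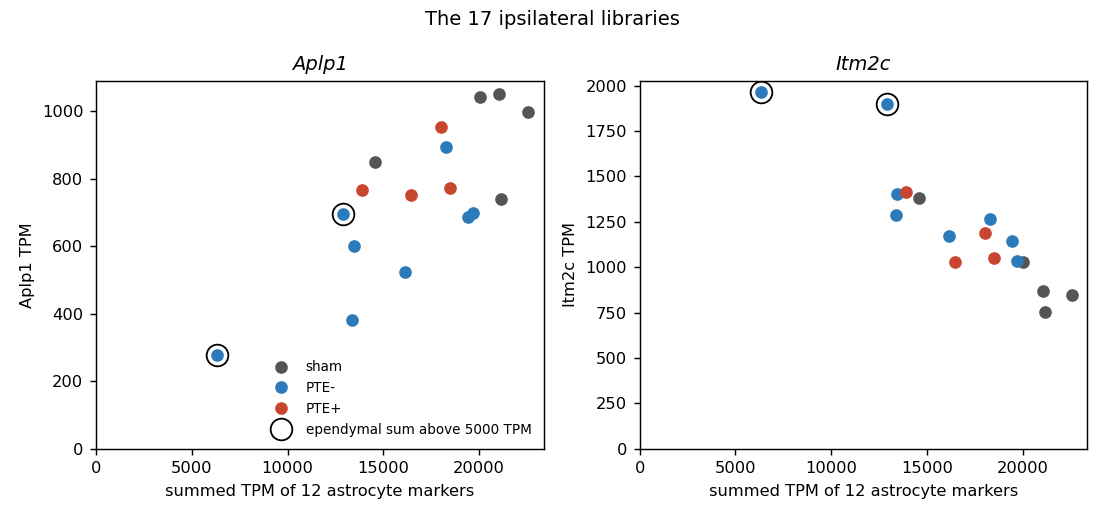
TPM of Aplp1 (left) and Itm2c (right) against the summed TPM of 12 astrocyte markers in the 17 ipsilateral libraries, with PTE- libraries a8_11 and a9_12 circled. Sham libraries gather at marker sums of 14560 to 22560 TPM with Itm2c at 755 to 1380 TPM, and the circled PTE- libraries lie at the low end of the marker sum with the highest Itm2c values, 1965 and 1899 TPM.

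The hemispheres of the same mouse were compared next. In sham mice the ipsilateral minus contralateral difference of Aplp1 was 0.22 on the log2(CPM + 1) scale, positive in 4 of 5 mice, and that of Itm2c was -0.05, positive in 3 of 5. In PTE- mice the ipsilateral minus contralateral difference of Aplp1 was -0.47, negative in 6 of 8 mice, and that of Itm2c was 0.52, positive in 7 of 8. In PTE+ mice the values were -0.09, negative in 2 of 4, and 0.16, positive in 3 of 4. As the shift after injury that selected the genes was seen in ipsilateral libraries, the side differences of Aplp1 and Itm2c are given with no test. The most negative difference of Aplp1 and the most positive of Itm2c were both in mouse a8_11, at -1.37 and 1.26. By limma voom with quality weights, which gives divergent libraries less weight, the PTE- side difference of Itm2c was 0.10 (SE 0.12). In the edgeR fit without mice a8_11 and a9_12 the PTE- side difference was -0.23 (SE 0.16) for Aplp1 against -0.44 (SE 0.16) with them, and 0.37 (SE 0.15) against 0.53 (SE 0.16) for Itm2c.

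None of the other 7 members met the criteria between the sides in sham mice (0.234% of genes called, smallest edgeR quasi-likelihood p 0.858). None did so in PTE- mice (2.43% of genes called, smallest p 0.366) or in PTE+ mice (0.613%, smallest p 0.36), and the side difference did not differ between PTE+ and PTE- mice for any of them (0.933%, smallest p 0.385). DESeq2, limma on log2(TPM + 1) and limma voom with quality weights also called none of them in these 4 comparisons, and by edgeR none had an unadjusted p under 0.05. Itm2b in PTE- mice had p = 0.0304 by limma voom with quality weights, at a log2 fold change of -0.25 that was below the 1.2-fold minimum. All 7 fitted side differences in PTE+ mice were above 0, with a median log2 fold change of 0.36 against -0.02 over all 15731 genes fitted. By library values Psen2, Ncstn and Sorl1 were higher on the ipsilateral side in 4 of 4 PTE+ mice, by 0.74, 0.37 and 0.42 on the log2(CPM + 1) scale, each with an exact permutation p = 0.125, the smallest that 4 mice allow. The share of all genes higher in 4 of 4 PTE+ mice was not counted. All members were measured in the same libraries, so their shared sign was not read as a joint rise.

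A question of the study's astrocyte sequencing was how PTE+ astrocytes differ from PTE- astrocytes after the same injury. In the contralateral hippocampus none of the 9 members met the criteria, against 1.63% of all genes, and none had an unadjusted p under 0.05 by edgeR, the smallest being 0.071 for Itm2b; every adjusted p was 0.9998. DESeq2 and limma on log2(TPM + 1) also called none, and limma voom with quality weights called Itm2b and Itm2c. That limma voom fit called 702 genes in all, against 185 by edgeR. On the ipsilateral side none met the criteria either, against 0.647% of all genes. There the smallest p among the 7 tested members was 0.269, again for Itm2b, with adjusted p-values of 1. The median log2 fold change was 0.05 over the 9 members on the contralateral side (all genes: -0.05) and 0.25 over the 7 tested members on the ipsilateral side (all genes: -0.01).

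**Figure D4:**
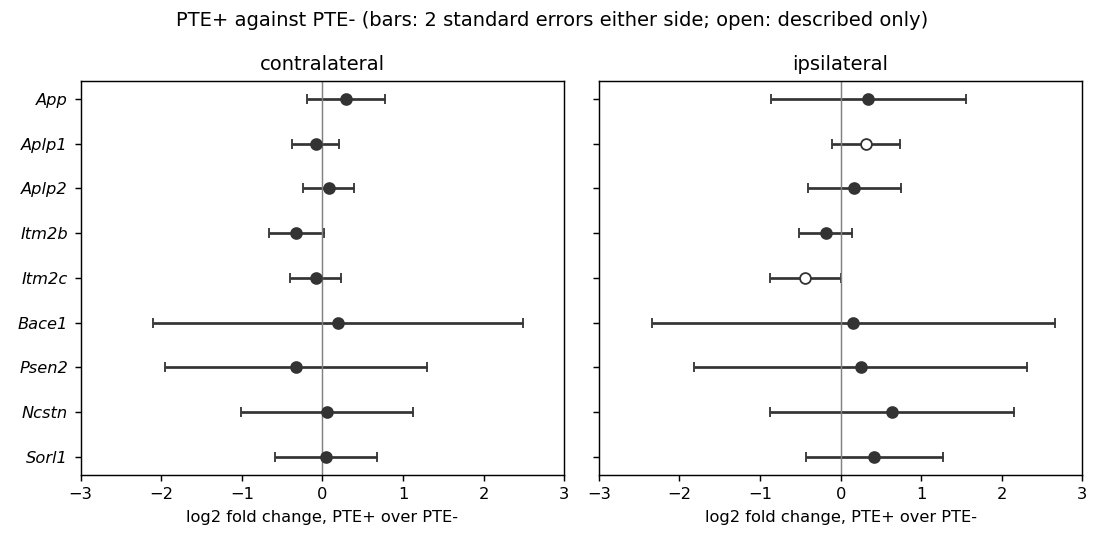
Log2 fold change of PTE+ over PTE- libraries for each member on the contralateral (left) and ipsilateral (right) side, with bars of 2 standard errors to each side. Filled points were tested and open points (ipsilateral Aplp1 and Itm2c) are described only, and the bars are narrow for Aplp1, Aplp2, Itm2b and Itm2c and wide for Bace1, Psen2 and Ncstn.

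Among the precursor genes, contralateral App had 223, 345, 396, 421 and 468 CPM in PTE+ libraries and 150 to 461 CPM with a median of 296 CPM in PTE- libraries. This gave a log2 fold change of 0.29 (SE 0.24, p = 0.242). On the ipsilateral side App had 260, 363, 538 and 617 CPM in PTE+ libraries, and 7 of the PTE- libraries lay between 315 and 528 CPM while a8_11 had 3.48 CPM. With that library included, the log2 fold change was 0.34 (SE 0.61, p = 0.578), and without a8_11 and a9_12 it was 0.20 (SE 0.27, p = 0.461). Aplp2 differed little on either side, with log2 fold changes of 0.08 (SE 0.16, p = 0.636) and 0.17 (SE 0.29, p = 0.567), the latter being 0.10 (SE 0.25) without a8_11 and a9_12. For Aplp1 the contralateral value was -0.08 (SE 0.15, p = 0.583). The interval of 2 standard errors around the contralateral values ran from -0.37 to 0.21 for Aplp1 and from -0.24 to 0.39 for Aplp2. The mice divided by name prefix gave different contralateral values of Aplp1: both a8 PTE+ libraries lay below all 4 a8 PTE- libraries, with a difference of -0.35 (exact permutation p = 0.0667, the smallest possible), whereas within a9 it was 0.12 (exact permutation p = 0.655).

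Ipsilateral Aplp1 in PTE+ libraries lay between the other groups. The PTE+ mean of 1047 ± 111 CPM (SD, n = 4) compared with 843 ± 246 CPM (n = 8) in PTE- and 1431 ± 216 CPM (n = 5) in sham libraries, and the log2 fold change of PTE+ over PTE- was 0.31 (SE 0.21), or 0.24 (SE 0.20) without a8_11 and a9_12. For Itm2c it was -0.44 (SE 0.22), or -0.17 (SE 0.15) without a8_11 and a9_12. Neither was tested, because the shift after injury that selected the genes was seen on this side.

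Of the BRICHOS genes, Itm2b was lower in contralateral PTE+ libraries by a margin that missed the threshold. PTE+ libraries had 1638, 1670, 1716, 2230 and 2351 CPM, and PTE- libraries 1609 to 3177 CPM with a median of 2350 CPM, so the groups overlapped and 4 of 5 PTE+ libraries lay below the PTE- median. The log2 fold change was -0.33 (SE 0.17, p = 0.071), and the exact permutation p on log2(CPM + 1) was 0.0853. The difference had the same sign within a8 (-0.21) and within a9 (-0.37), with exact permutation p-values of 0.267 and 0.107. With the name prefix as a covariate the value was -0.33 with p = 0.0345, with limma voom and quality weights -0.38 with p = 0.00621, and leaving out contralateral PTE+ a8_17, PTE- a9_14 or PTE- a9_16 gave p between 0.0334 and 0.0396; by adjusted p edgeR did not call Itm2b in the full fit (adjusted p = 0.9998). Ipsilateral Itm2b was -0.19 (SE 0.16, p = 0.269), or -0.06 (SE 0.15, p = 0.676) without a8_11 and a9_12. Contralateral Itm2c was -0.08 (SE 0.16, p = 0.61), or -0.31 with p = 0.0308 by limma voom with quality weights.

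The secretase genes varied so much that a 2-fold difference lay within 2 standard errors for each of them on both sides. Contralateral Bace1 had 1.91, 3.39, 21.4, 34.0 and 55.7 CPM in PTE+ libraries and 0 to 51.3 CPM with a median of 18.8 CPM in PTE- libraries. PTE+ over PTE- was 0.20 on the log2 scale (SE 1.15, p = 0.866), an interval of -2.10 to 2.49. No Bace1 count was found in contralateral PTE- a8_9, ipsilateral PTE- a8_11 and ipsilateral sham a9_9, which allows up to 0.0564, 0.0763 and 0.0544 CPM (3 counts, counting error only). Psen2 on the contralateral side had 15.3, 20.6, 28.01, 35.2 and 35.9 CPM in PTE+ and 0 to 63.7 CPM (median 35.1 CPM) in PTE- libraries, with a log2 fold change of -0.33 (SE 0.81, p = 0.687). Within a9 PTE+ minus PTE- was -0.91 (exact permutation p = 0.0476, 3 and 6 libraries) and within a8 1.64 (exact permutation p = 0.533, 2 and 4 libraries), whereas over all libraries the difference of log2(CPM + 1) was 0.11 (exact permutation p = 0.936), with PTE- a8_14 at no Psen2 count, which allows up to 0.0606 CPM. Among the exact permutation tests of single members this within-prefix value was the only p under 0.05, and it was not adjusted for their number. On the ipsilateral side the 4 PTE+ libraries had 36.2, 38.8, 39.9 and 59.4 CPM of Psen2 and the 5 sham libraries 0.127, 26.3, 26.9, 29.7 and 34.5 CPM. All PTE+ values lay above all sham values, but how many genes separate in this way was not counted. The lowest sham value was that of a9_9, a library in which other genes also dropped out. The 8 PTE- libraries ran from 0.128 to 123 CPM (median 29.3 CPM) and overlapped both. Fitted against sham, Psen2 was 0.89 (SE 1.14) in PTE+ and 0.64 (SE 0.99) in PTE- libraries, the latter 0.08 (SE 0.996) without a8_11 and a9_12. Ipsilateral PTE+ over PTE- was 0.25 (SE 1.03, p = 0.812) for Psen2 and 0.16 (SE 1.25, p = 0.9) for Bace1, or 0.89 (SE 1.05, p = 0.411) and -0.07 (SE 1.02, p = 0.946) without these libraries.

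Ncstn, the gamma-secretase scaffold, had contralateral values of 74.2, 74.9, 94.8, 95.0 and 111 CPM in PTE+ and 4.64 to 239 CPM (median 95.5 CPM) in PTE- libraries, a log2 fold change of 0.06 (SE 0.53, p = 0.913). On the ipsilateral side PTE+ libraries had 106, 107, 112 and 130 CPM, and 2 of these 4 lay above all PTE- libraries, which ran from 0.102 to 109 CPM with a median of 89.7 CPM. Here PTE+ over PTE- was 0.64 on the log2 scale (SE 0.76, p = 0.408), or 0.49 (SE 0.35, p = 0.181) without a8_11 and a9_12, and, within a9, the difference was 0.68 (exact permutation p = 0.125). Against sham, Ncstn in the ipsilateral PTE- libraries gave -0.93 (SE 0.71), and without a8_11 -0.73 (SE 0.31). Contralateral sham libraries had 104, 124, 132, 149 and 158 CPM of Ncstn, and 7 of 10 PTE- and 4 of 5 PTE+ libraries lay below all of them, with fitted values of -0.62 (SE 0.52) and -0.57 (SE 0.62). For none of these separations was the share of all genes counted.

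Sorl1, the sorting receptor, had ipsilateral values of 100, 165, 170 and 221 CPM in PTE+ libraries, 17.6 to 207 CPM (median 124 CPM) in PTE- libraries, and 70.3, 79.9, 90.3, 111 and 128 CPM in sham libraries. In PTE+, 3 of 4 libraries exceeded all sham libraries, a separation whose share over all genes was not counted, and the groups PTE+ and PTE- overlapped. The log2 fold change of PTE+ over PTE- was 0.42 (SE 0.43, p = 0.338), and 0.26 (SE 0.28, p = 0.368) without a8_11 and a9_12. Against sham the values were 0.77 (SE 0.47) for PTE+ and 0.35 (SE 0.41) for PTE-, and without a8_11 they were 0.83 (SE 0.29) and 0.55 (SE 0.26). Contralateral Sorl1 was 0.05 (SE 0.32, p = 0.877) between PTE+ and PTE-.

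**Figure D5:**
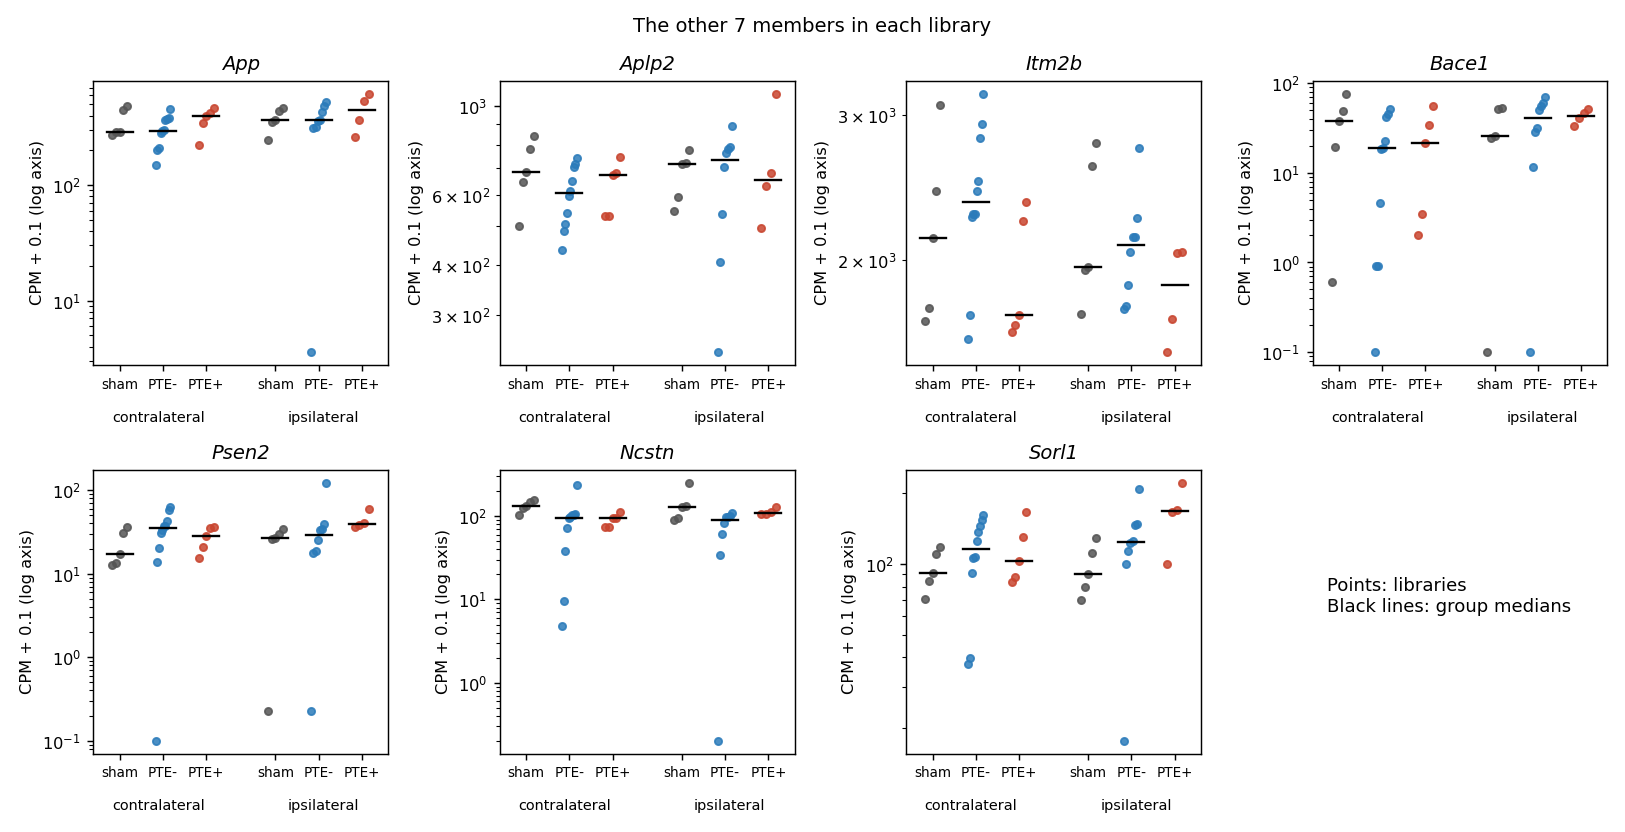
CPM plus 0.1 on log axes for the other 7 members in each library by side and group, with group medians as black lines. Most libraries of App, Ncstn, Psen2 and Bace1 lie in 1 band, and single PTE- and sham libraries, among them ipsilateral PTE- a8_11 for App (3.48 CPM) and Ncstn (0.102 CPM), lie far below it.

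Ratios within a library remove the scaling between libraries. The TPM of Aplp1 was a median of 2.48 log2 units above that of App in contralateral sham libraries, 2.51 in PTE- and 2.06 in PTE+ libraries. The difference of means, PTE+ minus PTE-, was -0.38 (exact permutation p = 0.234), and -0.53 with p = 0.0425 by the same exact permutation test without contralateral PTE- a9_15, the library with the lowest Aplp1 of that side. The ratio of Itm2c to Itm2b differed by 0.24 between contralateral PTE+ and PTE- libraries (exact permutation p = 0.12), with 0.29 (exact permutation p = 0.0445) without PTE- a9_13 and 0.32 (exact permutation p = 0.047) without PTE+ a8_10. On the ipsilateral side Itm2c was 0.31 to 0.54 times Itm2b in sham, 0.44 to 0.82 times in PTE- and 0.40 to 0.58 times in PTE+ libraries. Ratios of Aplp2 to App (-0.28, exact permutation p = 0.317) and of Psen2 to Ncstn (-1.18, exact permutation p = 0.13, leaving out PTE- a8_14, which had no Psen2 count) on the contralateral side did not pass the threshold, and neither did their ipsilateral values (exact permutation p = 0.606 and 0.824). None of these p-values was adjusted for the 6 ratios tested.

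The wider amyloid pathway was described through 40 further genes: other secretase subunits, alpha-secretases, adaptors of the NPTY tail, sorting and retromer genes, and genes of amyloid-beta degradation and transport. Of these 36 were abundant enough to be called. Their values include libraries a8_11 and a9_12 wherever ipsilateral PTE- libraries enter, and none was obtained without them. On the contralateral side 2 (all genes: 1.63% called) were lower in PTE+ than in PTE- libraries and none higher. They were Apoe, the main lipid carrier secreted by astrocytes, at -0.42 (SE 0.18, p = 0.0348), and Clu, a secreted chaperone, at -0.46 (SE 0.21, p = 0.0412). On the ipsilateral side 1 (all genes: 0.647%) was lower, Cst3, which encodes the protease inhibitor cystatin C, at -0.70 (SE 0.29, p = 0.0252). The study had already reported lower Cst3 in PTE+ astrocytes of both sides from these libraries, so this p is no independent support. Here Cst3 was not called on the contralateral side. By staining, the study counted more CST3-positive cells in the ipsilateral hilus of PTE+ than of PTE- mice. Between the sides of PTE- mice, where 2.43% of all genes were called, Apoe was lower ipsilaterally by -0.37 (SE 0.16, p = 0.0286) and Rtn4, a reticulon that binds beta-secretase, was higher by 0.62 (SE 0.28, p = 0.0349). None was called between the sides of sham or PTE+ mice, where the smallest p-values belonged to Apoe (0.206) and Clu (0.314) and to Sort1 (0.161) and Mme (0.174), nor in the difference between PTE+ and PTE- side differences, where Ece2 (0.132) and Mme (0.156) had the smallest. Against sham, Apoe (-0.56, SE 0.19) and Cst3 (-0.81, SE 0.31) were lower in ipsilateral PTE+ libraries (p = 0.00885 and 0.0168, with 0.64% of all genes called) and none was called in the other 3 comparisons, where the smallest p-values were those of Sorcs3 (0.0626) and Apoe (0.151) for contralateral PTE-, Ide (0.0691) and Apbb2 (0.218) for contralateral PTE+, and Apoe (0.0585) and Rtn4 (0.153) for ipsilateral PTE-. The adjusted p-values of the genes named lay between 0.856 and 1, and the list's median log2 fold change of PTE+ over PTE- was -0.08 (all genes: -0.05) on the contralateral side and -0.01 (all genes: -0.01) on the ipsilateral side.

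The genes whose contralateral pattern was most like that of Aplp1 over 20 libraries, among 10892 genes with a mean above 5 TPM, were 2310022B05Rik (Spearman's rho 0.72), Ap2a1 (0.72) and Kalrn (0.71), with ipsilateral values of -0.17, 0.58 and 0.39 over 17 libraries. For Itm2c they were Wnt4 (0.79), Nuf2 (0.78) and Hist1h2bg (0.76), with 0.28, 0.75 and -0.03. Ap2a1 and Nuf2 were thus the only ones of the 6 whose likeness stayed above 0.5 on the other side. All 6 were picked as the highest of 10892 correlations over 20 libraries and were not tested, so shared regulation is not read from them. Nuf2 and Hist1h2bg had means of 6.39 and 6.52 TPM, near the cut of 5 TPM. Between Aplp1 and Itm2c themselves rho was 0.19 on the contralateral side and -0.62 on the ipsilateral side.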

How the data were processed

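RNA-seq was available for 37 hippocampal astrocyte libraries of 20 mice. The authors used Trim Galore 0.6.4 for adapter trimming and quantified genes with RSEM 1.2.28 and Bowtie2 2.4.1 on mm10, and deposited expected counts, rounded to whole numbers before deposit as far as the values show, and TPM. The annotation release is not given in the sources used here, and 21933 of the 21975 identifiers matched GENCODE M21 (GRCm38, the assembly of mm10). SMART-Seq V4 libraries do not mark strand. Counts were tested with edgeR 4.0.16 (quasi-likelihood, TMM, filterByExpr, 3 groups in 1 fit per side, Benjamini-Hochberg adjustment over all genes); the side comparisons used 1 fit of the 17 mice with both libraries. All 9 members passed the filter on low counts on both sides. Calls followed the study's criteria. Standard errors are the log2 fold change divided by the square root of F. Printed CPM were scaled over all 37 libraries. Differences of single members were tested on log2(CPM + 1) with exact permutation tests, two-sided. limma 3.58.1, DESeq2 1.42.0, other filters, the name prefix, the mouse as a block and leaving out each library were alternatives, and 1 alternative, leaving out a8_11 and a9_12, was added after the data were seen. The fit was tested on simulated data whose spread was set below that of these libraries, so that test does not show which differences could be found here. The 3-count floors cover counting error only, while standard errors, their intervals and p-values rest on the spread between mice.

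The members and the gene lists were chosen with earlier results of these data known. Named genes were the 9 members, the pathway genes that met the criteria in a comparison (otherwise the 2 with the smallest p), and for Aplp1 and Itm2c the 3 genes with the most similar contralateral pattern. The 2 libraries of 1 mouse were paired by its name in the labels: their deviations from the group means correlated with a median r of 0.08 (17 pairs, -0.04 to 0.36) against -0.02 between different mice of a group (88 pairs). No libraries were identical.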

Additional observations from a re-analysis of the deposited data

Results flagged for a closer look

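In 10 of 54 sets of 1 gene in 1 group, 1 library lay farther from the others than Dixon's 95% limit, where chance alone gives about 1 in 20. Of these, 5 were ipsilateral PTE- a8_11, the library with few detected genes: App had 3.48 CPM there against 315 to 528 CPM in the other 7, Sorl1 17.6 CPM against 100 to 207.2 CPM, Ncstn 0.102 CPM against 34.3 to 109 CPM, Bace1 0 CPM against 11.6 to 70.9 CPM, and Itm2c was the highest of its group at 3497 CPM against 1489 to 2113 CPM. In ipsilateral sham a9_9, in which 836 of 6953 otherwise high genes had 3 counts or fewer, Bace1 had 0 CPM against 24.4 to 52.5 CPM and Psen2 0.127 CPM against 26.3 to 34.5 CPM. Psen2 was lowest in both libraries of PTE- mouse a8_14, with 0 CPM against 13.7 to 63.7 CPM on the contralateral side and 0.128 CPM against 17.6 to 123 CPM on the ipsilateral side. Both are libraries in which other genes dropped out, with 342 and 845 of the 6953 genes at 3 counts or fewer. Contralateral PTE- a9_15 was the lowest of its group in Aplp1, with 696 CPM against 1085 to 1484 CPM. The 10 values came from 5 libraries.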

How the results depend on the processing

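Of 945 log2 fold changes under alternative settings 71 changed sign. In only 2 of these, both by limma voom with quality weights, did the main or the alternative value exceed its standard error. Ncstn between the sides of sham mice was -0.29 (SE 0.28). Itm2c in the PTE+ minus PTE- side difference was 0.18 (SE 0.20), against -0.36 (SE 0.28) in the main fit. The count of members meeting the criteria in contralateral PTE+ against PTE- libraries, 0, was 2 by limma voom with quality weights (Itm2b, Itm2c), 1 with the name prefix as a covariate (Itm2b) and 0 to 1 with 1 library left out. In the ipsilateral comparison it was 1 by limma on log2(TPM + 1) (Aplp1) and 0 to 1 with 1 library left out (Itm2c, without PTE+ a8_10 or PTE- a9_15), and in the side difference between PTE+ and PTE- mice 0 to 1 (Aplp1, without PTE- a9_15). Against sham, leaving out 1 library gave 1 to 4 members in ipsilateral PTE- and 0 to 1 in ipsilateral PTE+ libraries, and the latter was 1 (Sorl1) without a8_11 and a9_12. Over all genes, leaving out 1 library gave 129 to 227 calls in contralateral and 36 to 150 in ipsilateral PTE+ against PTE- libraries. It gave 93 to 221 in the side difference between PTE+ and PTE- mice. Against sham it gave 83 to 267 in ipsilateral PTE- and 35 to 183 in ipsilateral PTE+ libraries. The calls of Aplp1 and Itm2c on ipsilateral libraries, where their shift after injury was seen, and all calls against sham are counts under the rule and not tests. With the mouse as a replicate block 0 of the members counted were called in the 4 side comparisons, as without it. Aplp1 and Itm2c were left out of the count between the sides of PTE- and of PTE+ mice. Whether the pairing changed a call of these genes there was not counted. Within prefix a8 the side difference of Aplp2 was -0.28 in sham and -0.61 in PTE- mice (within a9 0.13 and 0.25) and that of Bace1 3.85 in the single PTE+ mouse (within a9 0.32), and the contralateral PTE+ minus PTE- difference of Psen2 was -0.91 within a9 and 1.64 within a8; the cause was not tested. With 1 library left out the contralateral ratio difference ran from -0.53 to -0.28 for Aplp1 to App and from 0.13 to 0.32 for Itm2c to Itm2b.

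Counts over all genes depended on the tool. PTE+ against PTE- gave 185 genes on the contralateral side (DESeq2 322, limma voom 702, limma on TPM 580) and 75 on the ipsilateral side (231, 321 and 359; 43 with these groups alone, 48 with the prefix, 179 above 1 TPM). Between sides it gave 26 in sham (53, 152 and 133; 121 above 1 TPM), 276 in PTE- (569, 394 and 760; 449) and 72 in PTE+ mice (111, 371 and 272; 300), and 114 for the difference between PTE+ and PTE- (230, 409 and 336; 344). Against sham it gave 110 and 75 on the contralateral side for PTE- and PTE+ (DESeq2 242 and 123, limma voom 330 and 383, limma on TPM 463 and 173, above 1 TPM 193 and 141; PTE+ with these groups alone 240), and 147 and 73 on the ipsilateral side (DESeq2 317 and 113, limma voom 509 and 305, limma on TPM 388 and 250; PTE+ above 1 TPM 177, with these groups alone 157). Bace1, Psen2 and Ncstn fell to a few counts in single libraries, including deep ones.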
